A study of Mus musculus with 2 samples.

Results

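The genes described here encode telomerase and shelterin, the enzyme that extends chromosome ends and the protein complex that covers them. They were taken by gene symbol, with every listed transcript counted, and comprise 10 of the 24117 gene symbols and 27 of the 48876 transcripts in the data. One of them, Terc, is the RNA component of telomerase, and the other 9 are protein-coding. RNA was sequenced after enChIP, in which an engineered protein that binds a chosen DNA sequence is immunoprecipitated with its chromatin, from Ba/F3, a mouse hematopoietic cell line recorded as strain C3H. The Tel-TAL library came from cells stably expressing 3xFN-Tel-TAL, a FLAG-tagged, nuclear-targeted transcription activator-like (TAL) protein that recognizes telomeric repeats, and the LexA library from cells stably expressing 3xFNLDD, a FLAG-tagged LexA protein used as negative control. Cells of both kinds were fixed with formaldehyde, the chromatin was sonicated, and the anti-FLAG M2 antibody was used for both. Each group is 1 library from 1 derived cell line, so the tagged protein, the cell line and the library preparation cannot be told apart. Input RNA was not analysed here, so a higher level of an RNA in the cells cannot be told apart from a larger share of it recovered with the chromatin.

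Telomerase adds telomeric repeats by copying a short template in Terc with the reverse transcriptase Tert. Terc also carries an H/ACA domain at its 3′ end, which is bound by dyskerin (the product of Dkc1) and its partners, and a Cajal body box, which is bound by the Wrap53 protein, also known as TCAB1. Shelterin consists of the double-strand repeat-binding proteins TRF1 (Terf1) and TRF2 (Terf2), the TRF2 partner RAP1 (Terf2ip), the bridging protein TIN2 (Tinf2), and TPP1 (Acd), which brings the single-strand-binding protein POT1 to the complex. The comparison of interest is whether Terc, which as an RNA is part of the enzyme, differed between the libraries in another way than the mRNAs, which only encode the proteins.

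The parts of Terc that bear on this comparison are shown first. The annotation places Terc (ENSMUST00000082862) on chromosome 3 of NCBIM37, reverse strand, from 96218360 to 96218782, as 1 exon of 423 nt. The first stretch, at chr3:96218722-96218775, covers positions 8 to 61 of the transcript, with 9 bases of the template region, complementary to telomeric repeats, in capitals. The second, at chr3:96218360-96218415, covers positions 368 to 423, with the Cajal body box letters TGAG and the ACA that follows them after 31 bases in capitals. Both are written 5′ to 3′ as DNA.
Terc template: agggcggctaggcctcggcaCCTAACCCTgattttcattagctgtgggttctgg
Terc 3′ end: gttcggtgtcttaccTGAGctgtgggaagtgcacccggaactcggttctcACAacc
The template letters and TGAG each occur once in the 423 nt, on the strand of the transcript.

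The deposited read counts sum to 7206183 for the LexA library and 9774844 for the Tel-TAL library. Each count is also given as RPM, reads scaled to a common library total, and 3 reads, the limit below which an RNA counts as undetected, correspond to 0.416 RPM and 0.307 RPM. Most reads fell on 11 RNAs outside the set, which held 84.8% and 81.1% of the 2 libraries. Log2 ratios compare RPM as Tel-TAL over LexA. Their 95% intervals were derived from exact Clopper-Pearson limits on how an RNA's reads divide between the libraries. There are no replicates, so the intervals cover counting error only. Without molecular identifiers reads of the same molecule are counted separately, so the intervals may be too narrow even for this error. Of 10 hematopoietic marker genes, 9 were in the files and had reads in both libraries, summing to 251.9 RPM in LexA and 342.0 RPM in Tel-TAL. Their log2 ratios ran from -0.44 for Kit (2 reads in each library) to 1.60 for Laptm5 (192 and 791 reads). Of the 9, the only other one below 0 was Csf2rb2 (751 and 849 reads, -0.26, -0.41 to -0.12). Of 4 fibroblast markers, 3 were in the files and summed to 5.83 and 2.25 RPM, and of 5 epithelial and liver markers, 3 summed to 1.67 and 1.02 RPM. The marker sums thus also differed between the libraries. The part of these marker differences in the results for telomerase and shelterin genes was not tested.

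Terc was the most deeply read gene of the set. The LexA library held 292 Terc reads (40.5 RPM) and the Tel-TAL library 679 (69.5 RPM), a level 1.71 times as high (95% interval 1.49 to 1.97). The log2 ratio was 0.78 (0.58 to 0.98). Scaling by the trimmed mean of M values (TMM), which discounts the few dominant RNAs, lowered all log2 ratios by 0.37 and gave 0.41 (0.21 to 0.61) for Terc. Its level was thus higher in Tel-TAL under both scalings. The threshold of 1.4-fold is that of the study for its list of non-coding RNAs. The study's methods word it for read counts, and it was applied here to ratios of RPM. Unscaled ratios are larger for every gene, because the Tel-TAL library has more reads. The counts of genes above 1.4-fold given below therefore do not follow the study's rule. The Terc ratio was 2.33 in unscaled reads, was above 1.4 by library totals and was below it with TMM scaling. Terc was among the RNAs that the study selected with this threshold in the same data, so its place above the threshold is not independent evidence.

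**Figure D1:**
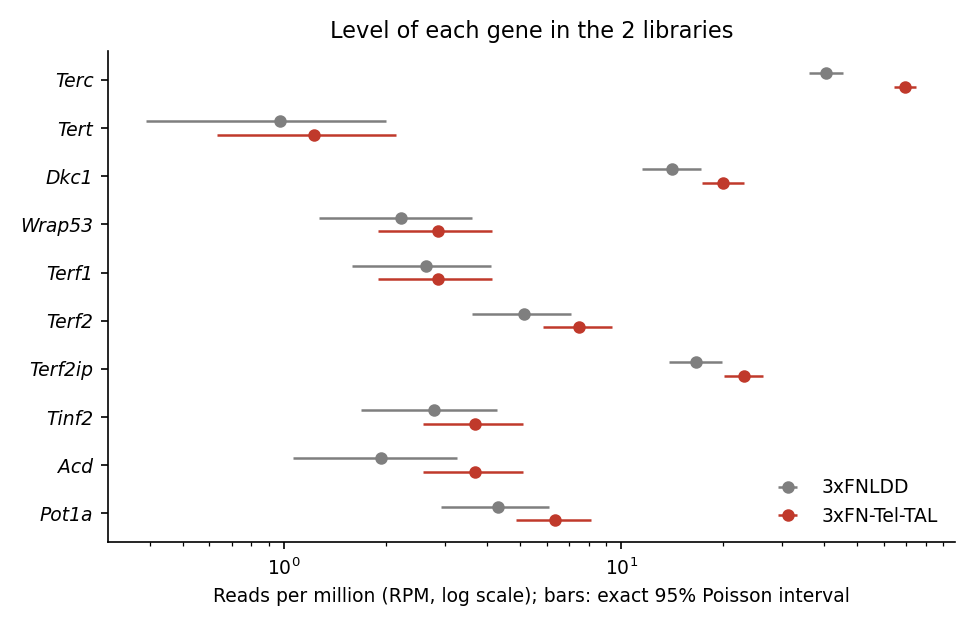
Level of the 10 genes in RPM (horizontal axis, log scale) in 3xFNLDD (grey) and 3xFN-Tel-TAL (red), with reads summed over all transcripts of a gene and exact 95% Poisson intervals as bars. Terc stands at 40.5 and 69.5 RPM, Terf2ip and Dkc1 between 14.2 and 23.1 RPM, and the other 7 genes below 7.5 RPM.

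The mRNAs of the telomerase proteins were far less abundant. Dkc1, whose product dyskerin binds H/ACA RNAs, had 102 reads in LexA (14.2 RPM) and 196 in Tel-TAL (20.1 RPM), a log2 ratio of 0.50 (0.15 to 0.86). Wrap53, which encodes the protein that recognizes the Cajal body box, had 16 and 28 reads (2.22 and 2.86 RPM), a log2 ratio of 0.37 (-0.57 to 1.35). Only the Dkc1 interval lies above 0.

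The mRNA of Tert, the catalytic subunit, was the scarcest of the set, with 7 reads in LexA (0.97 RPM) and 12 in Tel-TAL (1.23 RPM). The log2 ratio of Tert was 0.34, and its interval ran from -1.12 to 1.92, that is, from 0.459 to 3.79 times the LexA level, so no difference was detectable at this depth. With 19 reads in both libraries together it did not reach the minimum of 20 reads set for counts and medians. The 3 telomerase protein mRNAs together had 125 and 236 reads, a log2 ratio of 0.48 (0.16 to 0.80).

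Among the shelterin mRNAs, Terf2ip was the deepest. It had 120 reads in LexA (16.7 RPM) and 226 in Tel-TAL (23.1 RPM), a log2 ratio of 0.47 (0.15 to 0.81). Terf2, which encodes the protein that recruits RAP1, had 37 and 73 reads (5.13 and 7.47 RPM), a log2 ratio of 0.54 (-0.049 to 1.15). Terf1, which encodes the other double-strand repeat-binding protein, had the lowest log2 ratio of the set, 0.12 (-0.77 to 1.04), from 19 and 28 reads (2.64 and 2.86 RPM). The intervals of Terf1 and Terf2 overlap.

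The genes of the TIN2, TPP1 and POT1 arm had between 50 and 93 reads in both libraries together. Tinf2 had 20 reads in LexA (2.78 RPM) and 36 in Tel-TAL (3.68 RPM), a log2 ratio of 0.41 (-0.42 to 1.27). Acd, whose product TPP1 also recruits telomerase to chromosome ends, had 14 and 36 reads (1.94 and 3.68 RPM), the highest log2 ratio of the set at 0.92, although the interval (-0.0032 to 1.93) includes 0. Pot1a had 31 and 62 reads (4.30 and 6.34 RPM), a log2 ratio of 0.56 (-0.084 to 1.23). Without the Pot1a paralog Pot1b, which is described below, the 6 shelterin mRNAs together had 241 and 461 reads, a log2 ratio of 0.50 (0.27 to 0.73). Relative to the telomerase protein mRNAs, shelterin mRNAs differed by 0.019 on the log2 scale (-0.38 to 0.42), so no difference between the groups was detectable. With TMM scaling the intervals of both sums included 0, at -0.21 to 0.43 for the telomerase protein mRNAs and -0.10 to 0.36 for the shelterin mRNAs.

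**Figure D2:**
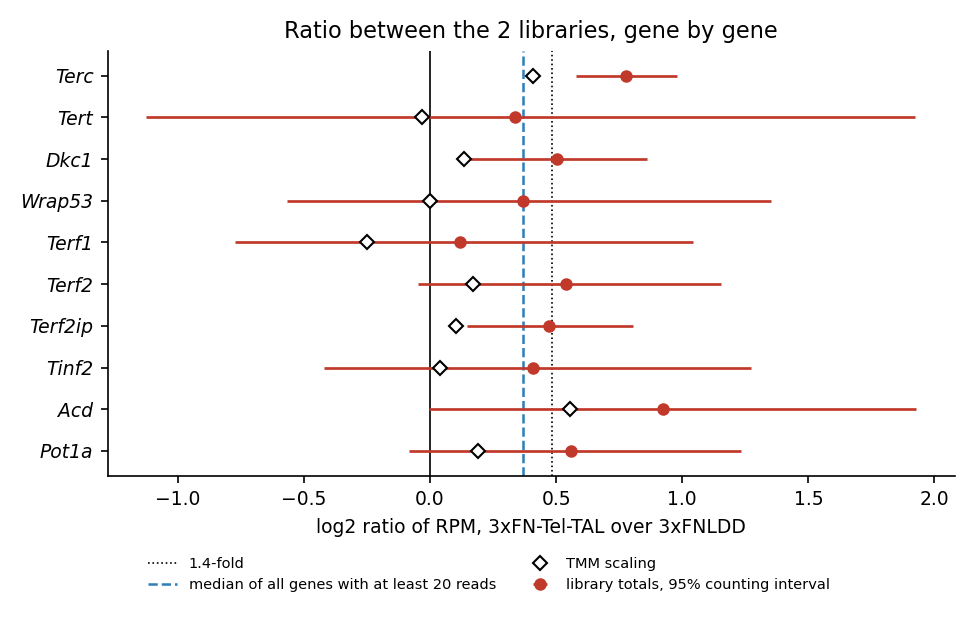
Log2 ratio of RPM in the Tel-TAL (3xFN-Tel-TAL) over the LexA (3xFNLDD) library for the 10 genes (red points, library totals, with 95% counting intervals) and the same after TMM scaling (diamonds). The blue line is the median of all genes with at least 20 reads (0.37) and the dotted line 1.4-fold. All red points lie above 0, and the intervals of Terc, Dkc1 and Terf2ip lie wholly above 0.

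To compare levels between genes, the summed reads were divided by the length of the longest listed transcript of each gene. On this per-length scale, Terc had 95.8 RPM per kb (95% interval 85.1 to 107.4) in LexA and 164.2 RPM per kb (152.1 to 177.0) in Tel-TAL. Dkc1 followed with 5.05 and 7.15 RPM per kb and Terf2ip with 4.63 and 6.42 RPM per kb, and these neighbours did not differ beyond their intervals in either library. Next came Terf2, with 1.93 and 2.80 RPM per kb, below Terf2ip beyond the intervals in both libraries. Among Terf2, Terf1, Tinf2, Acd, Pot1a and Wrap53, each interval overlapped that of the gene next in level, in both libraries. These levels were between 1.17 and 1.93 RPM per kb in LexA and between 1.51 and 2.80 RPM per kb in Tel-TAL. The intervals of the first and last in Tel-TAL, Terf2 (2.195 to 3.521) and Wrap53 (1.007 to 2.189), did not overlap. Tert was last with 0.284 and 0.358 RPM per kb, below Wrap53 beyond the intervals in both libraries. Transcript lengths follow the annotation, which may differ from the RNAs present in these cells.

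Setting Terc against the mRNAs within each library removes the scaling, because the library total cancels. There were 2.86 Terc reads per Dkc1 read in LexA and 3.46 in Tel-TAL, and 2.43 and 3.00 Terc reads per Terf2ip read. On the log2 scale the difference was 0.28 for Dkc1 (exact conditional 95% interval -0.14 to 0.68) and 0.30 for Terf2ip (-0.086 to 0.69). Terc had a higher ratio than 8 of the 9 mRNAs, the exception being Acd at -0.15 (-1.17 to 0.81). For 0 of the 9 single mRNAs did the interval lie above 0.

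Summing the mRNAs narrowed the interval. For each read of the 9 mRNAs there were 0.798 Terc reads in LexA and 0.974 in Tel-TAL, a log2 difference of 0.29 (0.013 to 0.56), or 1.22-fold. The interval lies only just above 0. It included 0 when Terc was set against the telomerase protein mRNAs alone (0.30, -0.084 to 0.68) or the shelterin mRNAs alone (0.28, -0.026 to 0.59). Dkc1 and Terf2ip held 60.6% of the reads of the 9 mRNAs. Against the other 7 mRNAs, a comparison chosen after seeing the data, the log2 difference was 0.28 (-0.080 to 0.65). The difference was therefore between 0.28 and 0.30 in each grouping, and only the interval against all 9 mRNAs excluded 0. These intervals compare the 2 libraries, not the conditions.

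Against protein-coding genes at large the point estimate was larger, although its interval overlaps that against the 9 mRNAs. Relative to the summed reads of 17489 protein-coding genes outside the set, without RNAs above 1% of a library, Terc was 0.46 higher on the log2 scale in Tel-TAL (0.26 to 0.66). The 9 telomerase and shelterin mRNAs were 0.17 higher by the same measure (-0.016 to 0.36), so they did not differ detectably from other mRNAs. With RNAs above 1% of a library included, the Terc difference was 0.58 (0.38 to 0.78).

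**Figure D3:**
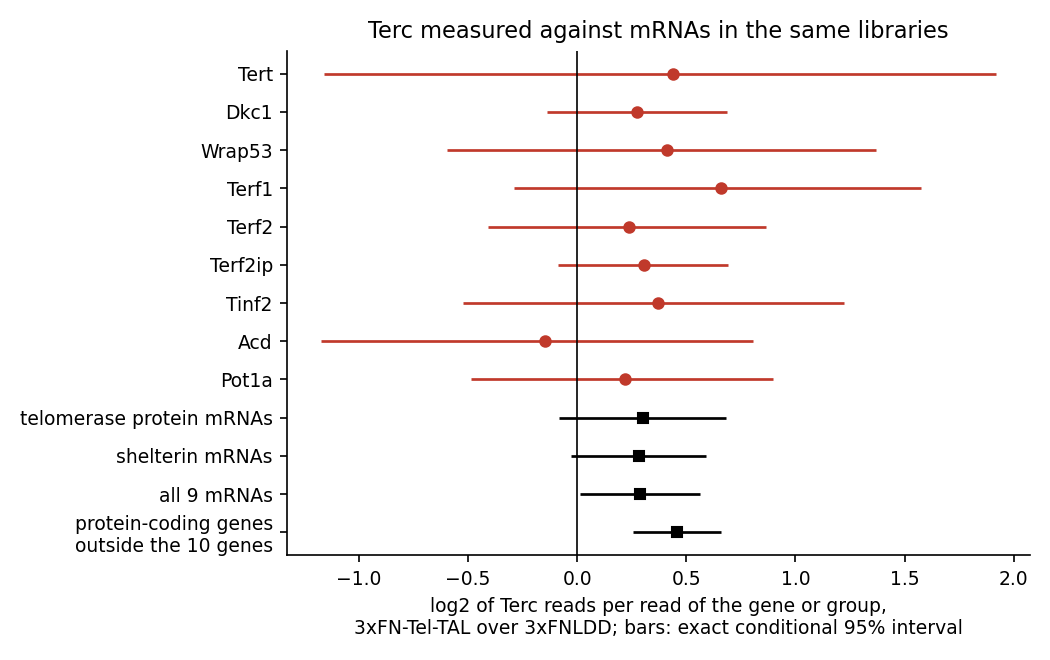
Log2 of the number of Terc reads per read of each mRNA (red) or summed group (black) in 3xFN-Tel-TAL over the same in 3xFNLDD, with exact conditional 95% intervals. All points but Acd lie above 0, and only the intervals against all 9 mRNAs (0.013 to 0.56) and against other protein-coding genes (0.26 to 0.66) exclude 0.

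Most genes in these libraries had a ratio above 1. The 12517 genes whose reads in the 2 libraries summed to 20 or more had a median log2 ratio of 0.37, and 72.8% of them were above 0. All 9 genes of the set with this depth were above 0 by library totals, and 7 of them were above this median, with Wrap53 exactly at it and Terf1 below. A ratio above 1.4 was found for 5 of the 9 (Terc, Dkc1, Terf2, Acd and Pot1a), beside 41.1% of all genes. Dkc1 at 1.42-fold was the nearest inside this threshold and Terf2ip at 1.39-fold the nearest outside it. None of the 9 had a ratio below 1/1.4, beside 11.5% of all genes. The whole interval lay above a ratio of 1 for 3 of the 9 (Terc, Dkc1 and Terf2ip), beside 34.3% of all genes. With 9 genes, these shares are given only as a description beside the background.

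The median log2 ratio of the 8 mRNAs with at least 20 reads was 0.49 by library totals and 0.12 with TMM scaling, where the median of all genes was -0.0013. With TMM scaling 6 of these 8 mRNAs stayed above 0, Terf1 (-0.25) and Wrap53 (-0.0013) were below it, and only the Terc interval remained above 0. For all 8 mRNAs the interval by library totals included the median of all genes. Whether any single telomerase or shelterin mRNA differed from the typical gene was thus not detectable at this depth. Terc can be placed more closely. Of the 3065 genes with at least 200 reads, 19.9% had a higher log2 ratio than Terc, and of the 188 non-coding genes among them 14.9% did.

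**Figure D4:**
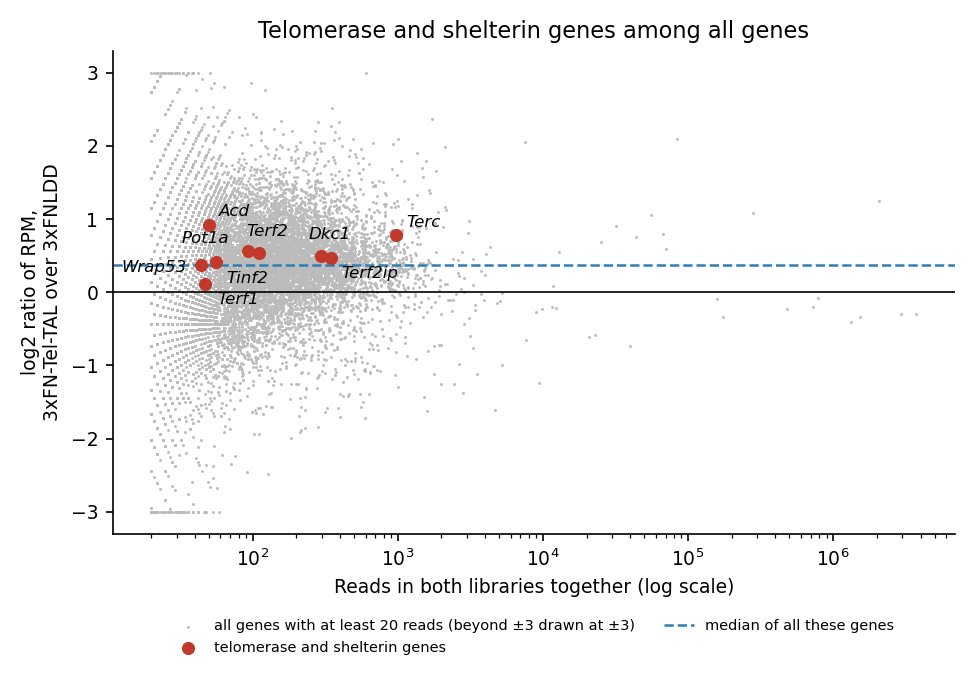
Log2 ratio of RPM in the Tel-TAL (3xFN-Tel-TAL) over the LexA (3xFNLDD) library against reads in both libraries together (log scale) for the 12517 genes with at least 20 reads (grey) and the 9 telomerase and shelterin genes of this depth (red). The red points lie within the cloud of other genes, Terc at 971 reads and 0.78 and the 8 mRNAs between 0.12 and 0.92, on both sides of the median of 0.37 (blue line).

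RNAs with a ratio like that of Terc were of several kinds. The log2 ratio of 656 of the 3065 genes with at least 200 reads (21.4%) lay within the Terc interval, among them 30 non-coding genes including Terc. Over these 2 libraries, the 3 other non-coding genes nearest to Terc were the snoRNA Gm23455 (104 and 242 reads, 0.78), the processed transcript 1810059H22Rik (81 and 188 reads, 0.77) and the misc_RNA Gm25688 (79 and 185 reads, 0.79).

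The 9 mRNAs were spread over 26 listed transcripts. Only 10 of these reached 20 reads over the 2 libraries, and all 10 had a log2 ratio above 0, beside 72.6% of all transcripts of this depth. Dkc1 had 7 transcripts, of which the protein-coding ENSMUST00000033776 held 98 and 178 reads, a log2 ratio of 0.42 (0.058 to 0.79). The single protein-coding transcript of Wrap53 (ENSMUST00000048139) had 14 and 28 reads and a log2 ratio of 0.56 (-0.41 to 1.60). Without the second listed Wrap53 transcript, which had 2 and 0 reads, the gene was thus above 1.4-fold rather than below it. By protein-coding transcripts alone, Dkc1 (0.42) and Pot1a (0.25) moved the other way, below 1.4-fold (0.49 on the log2 scale).

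Terf2 reads were divided among 3 protein-coding transcripts. ENSMUST00000116425 had 15 and 27 reads (log2 ratio 0.41), ENSMUST00000068421 had 11 and 20 reads (0.42) and ENSMUST00000068388 had 8 and 22 reads (1.02, -0.20 to 2.40). Their intervals overlap. The treatment of reads shared by transcripts is not given in the sources used here, so the division within a gene is less certain than its sum.

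The most-read Pot1a transcript was not protein-coding. ENSMUST00000151186, annotated as a retained intron of 1443 nt, had 10 and 26 reads, a log2 ratio of 0.94 (-0.16 to 2.16). The 3 protein-coding Pot1a transcripts together had 18 and 29 reads, a log2 ratio of 0.25 (-0.65 to 1.18). The value of 0.56 for the gene is therefore a sum over transcripts with different point estimates, whose intervals overlap. Tert, Terf1, Terf2ip, Tinf2 and Acd each had 1 listed transcript. Among the mRNAs, 16 transcripts had 19 reads or fewer and together held 37 and 70 reads.

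**Figure D5:**
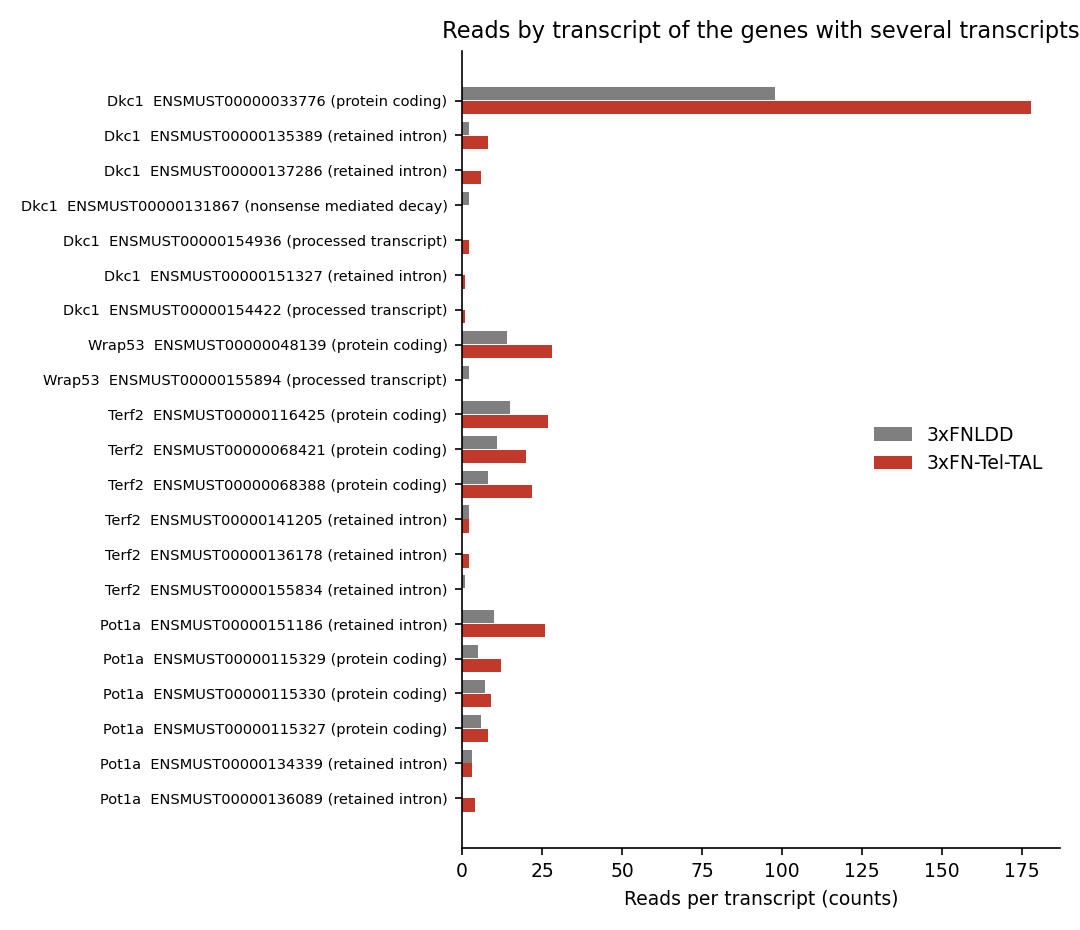
Read counts per transcript (bars from 0) in 3xFNLDD (grey) and 3xFN-Tel-TAL (red) for the 4 genes with several listed transcripts, with the annotated transcript type in brackets. Dkc1 is carried by 1 protein-coding transcript with 98 and 178 reads, Terf2 by 3 with 8 to 27 reads each, and the most-read Pot1a transcript, with 10 and 26 reads, is a retained intron.

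The positions of the genes share little. On NCBIM37, Tert lies on chromosome 13 (73764449 to 73786489, forward strand), Dkc1 on chromosome X (72341193 to 72355116, forward), Wrap53 on chromosome 11 (69375260 to 69393757, reverse) and Terf1 on chromosome 1 (15795739 to 15833551, forward). Tinf2 lies on chromosome 14 (56295455 to 56300654, reverse) and Pot1a on chromosome 6 (25693737 to 25759246, reverse). The other 3 shelterin genes are on chromosome 8, with Acd from 108222058 to 108224995 (reverse), Terf2 from 109593300 to 109620447 (reverse) and Terf2ip from 114535259 to 114544428 (forward). Their log2 ratios of 0.92, 0.54 and 0.47 have overlapping intervals.

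Because Tel-TAL recognizes telomeric repeats, the gene spans were searched for them on both strands. None of the 10 spans held 2 units of TTAGGG in a row. Of all 37310 annotated gene spans, 1.31% held 2 units in a row and 0.402% held 3. At so low a share, a set of 10 spans cannot show fewer than other genes. A single unit, counted only as the letters TTAGGG on either strand, was present in 8 of the 27 transcripts of the set. These came from Tert, Dkc1, Terf2, Tinf2 and Pot1a. Terc did not hold these letters, although its template region, shown above, is complementary to telomeric repeats from another starting base. A unit counted in this way was present in 38.1% of the 45887 listed transcripts with an annotation. Spans and transcripts differ in length, and these matches are of letters only.

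Some reads could come from neighbours, since the TruSeq RNA v2 kit named in the labels does not mark the strand. Tinf2 shares 232 of its 2959 exonic bases with Gmpr2 on the opposite strand, Dkc1 shares 45 of 4121 with Mpp1, and Acd shares 21 of 1530 with Rltpr. In LexA and Tel-TAL, Gmpr2 had 18 and 12 reads, Mpp1 18 and 31 reads and Rltpr 8 and 18 reads. The other genes of the set share no exonic bases with a neighbour in this annotation.

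Pot1b, the paralog of Pot1a in rodents, was far more deeply read than the 6 shelterin mRNAs above. Its 1 listed transcript is ENSMUST00000086876, on chromosome 17 between 55791323 and 55851926 (reverse strand). It had 1600 reads in LexA (222.0 RPM) and 2140 in Tel-TAL (218.9 RPM). This is 6.64 and 4.64 times the reads of the 6 shelterin mRNAs together and rank 5 by reads among protein-coding genes. Its log2 ratio was -0.020 (-0.11 to 0.074) by library totals and -0.39 (-0.48 to -0.29) with TMM scaling. The intervals of Pot1a and Pot1b overlap by library totals, and Pot1a relative to Pot1b was 0.58 higher on the log2 scale (-0.072 to 1.26), which includes 0. The shelterin sum and the comparisons that use it, including Terc against all 9 mRNAs, thus hold only for the 6 shelterin mRNAs without Pot1b. With Pot1b included, most shelterin reads would be Pot1b reads, and the values for such a sum were not computed.

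Further genes of the pathway are given beside the background of 41.1% of genes above 1.4-fold and 11.5% below 1/1.4. Of the 5 genes for other H/ACA complex proteins and their assembly factors (Nhp2, Nop10, Gar1, Naf1 and Shq1), only Nop10 was above 1.4-fold, from 6 and 16 reads, and none was below 1/1.4, with a median log2 ratio of 0.13. Of 16 genes for telomerase assembly and Terc maturation, 15 had at least 20 reads, of which 3 were above 1.4-fold and 1 below 1/1.4, with a median of 0.082. Those above were Papd5, a poly(A) polymerase that oligoadenylates telomerase RNA (33 and 110 reads), Tgs1, which modifies its cap (32 and 90 reads), and Ptges3, a co-chaperone (51 and 105 reads). The gene below was Nvl, which encodes an AAA ATPase (49 and 47 reads, -0.50). Pinx1, a telomerase inhibitor gene, was under the minimum with 10 and 3 reads and had a log2 ratio of -2.18 (-4.68 to -0.22), the only interval of the 4 pathway lists that lay below 0 by library totals.

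Of the 10 genes of the CST complex and telomere replication, 4 were above 1.4-fold and 2 below 1/1.4, with a median of 0.40. Of the 14 genes of telomere chromatin and end protection, 6 were above and 1 below, with a median of 0.37. Over the 44 genes of these 4 lists with at least 20 reads, the median was 0.26, 14 were above 1.4-fold and 4 below 1/1.4. With TMM scaling the counts were 5 and 10, where 20.4% of all genes were above 1.4-fold and 22.4% below 1/1.4. Among the 15 with at least 200 reads, the highest log2 ratios were those of the primase subunit gene Prim1 (66 and 160 reads, 0.84), the helicase gene Rtel1 (85 and 204 reads, 0.82) and the tankyrase gene Tnks2 (96 and 199 reads, 0.61). The lowest were those of the helicase gene Blm (99 and 129 reads, -0.058), Upf1 (175 and 239 reads, 0.0098) and Rif1 (167 and 235 reads, 0.053).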

How the data were processed

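RNA purified after enChIP gave 1 library for each tagged protein, built from 60 ng of RNA according to the labels. The authors deposited whole-number read counts per Ensembl transcript, without normalization, and RPM, the count scaled to the summed counts of the library. RPM recomputed from the counts differed by at most 4.75e-05. The submitters' processing notes name cutadapt, GRCm38 and mm10. The aligner, the annotation release and the treatment of reads shared by transcripts are not given in the sources used here.

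Libraries were joined on Ensembl ID and counts were summed over all transcripts of a gene symbol. Ratios and intervals, without a pseudocount, used scipy 1.17.1, pandas 2.3.3 and numpy 2.4.6 under Python 3.11.15. With 1 library per condition no test was made. Counts and medians used genes whose reads over the 2 libraries summed to 20 or more. TMM factors came from edgeR 4.0.16 in R 4.3.3, on transcripts with at least 10 reads. Alternatives were TMM, totals without RNAs above 1% of a library, a pseudocount of 1, the most-read transcript only, other minimum counts and a threshold of 2. The interval calculation was checked on simulated independent Poisson counts, which hold no duplicate reads and no variation between replicate libraries. GENCODE M1 on NCBIM37, matched by Ensembl ID, gave transcript types, lengths, positions and sequences, and holds 45887 of the transcripts. Since this is another build than the one the notes name, no coordinate was converted.

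The 10 genes, the pathway and marker lists and the alternatives were chosen with earlier results of these data known. The text names every gene of the set, their transcripts with at least 20 reads, neighbours that share exonic bases with them, Pot1b, the 3 highest and 3 lowest pathway genes with at least 200 reads, and the 3 non-coding genes nearest to Terc in log2 ratio. Laptm5, Kit, Csf2rb2, Nvl, Pinx1, Nop10, Papd5, Tgs1, Ptges3 and the genes measured beside Nop10 were named after their values were seen. The markers Spi1, Col3a1, Epcam and Alb were not analysed here.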

Additional observations from a re-analysis of the deposited data

How the results depend on the processing

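No paired analysis was possible because each condition has a single library, which also means that leaving out replicates could not be tried. The choice of scaling moved most values. By TMM, the log2 ratio of Terc was 0.41 (0.78 by library totals), that of the summed telomerase protein mRNAs 0.11 (0.48), that of the summed shelterin mRNAs 0.13 (0.50) and the median of the mRNAs 0.12 (0.49). With totals without RNAs above 1% of a library, Terc was at 0.46, shelterin at 0.18 and the median at 0.17. The intervals of both sums included 0 under either of these scalings, at -0.16 to 0.49 and -0.048 to 0.41 for the telomerase protein and shelterin mRNAs in the second. The number of genes above 1.4-fold, 5 by library totals, was 1 of 9 by TMM (Acd, from 50 reads), beside 20.4% of all genes, and 1 of 9 with totals without RNAs above 1%, beside 22.6%. It was 2 with at least 200 reads (41.6% of all genes), 0 at a threshold of 2 (15% of all genes) and 1, Terc, when the lower 95% bound had to pass 1.4 (10.1% of all genes). With the most-read transcript only it was 4, and with protein-coding transcripts only also 4. The share of all genes was not computed for these 2 settings. No gene was below 1/1.4 in any setting. A pseudocount of 1, the most-read transcript only, and protein-coding transcripts only (added after seeing the data) left the log2 ratios of the single genes and groups within their main intervals, although Terc relative to Pot1a was at -0.16 with the most-read transcript (0.22 over all). Tert, Wrap53 and Terf1, whose intervals include 0, had log2 ratios below 0 by TMM. Every mRNA but Dkc1 and Terf2ip had at most 110 reads over the libraries. Ratios near 1.4 could not be resolved for any mRNA of the set. The ratio intervals of Dkc1 (1.11 to 1.82) and Terf2ip (1.11 to 1.75) also include 1.4.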

Other observations

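Few reads of the set lay on retained-intron transcripts. This grouping was chosen after seeing the values, so it was not tested. The 9 retained-intron transcripts of Dkc1, Terf2 and Pot1a had 18 reads in LexA and 52 in Tel-TAL (log2 ratio 1.09, 0.29 to 1.95). The 13 protein-coding transcripts of the set had 344 and 642 reads, a log2 ratio of 0.46 (0.27 to 0.65), and the intervals overlap. Retained-intron reads were 2 and 15 within Dkc1, 13 and 33 within Pot1a, and 3 and 4 within Terf2, where the log2 ratio was -0.025. Among transcripts outside the set with at least 20 reads, the median log2 ratio was 0.43 for 2060 retained-intron and 0.40 for 11021 protein-coding transcripts, leaving out RNAs above 1% of a library.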
